A study of Homo sapiens with 4 samples.

Results

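The genes described here were 10 immediate-early and stress-responsive genes, of which 9 encode transcription factors: the FOS family (FOS, FOSB, FOSL1 and FOSL2), the JUN family (JUN, JUNB and JUND), ATF3, EGR1, and DUSP1, which encodes a phosphatase. They were taken by gene symbol from the rows of the RNA-Seq expression table that lie on a named chromosome, and each symbol had 1 such row among the 62077 rows of the table. All 10 had a mean of at least 1 FPKM (fragments mapped to a gene, scaled to exon length in kb and to the mapped library) over the 4 libraries, a level that 15057 genes with a unique identifier reached. The rule that selects the rows uses the symbols and no expression value, but the genes were proposed with earlier results of these data known.

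The cells were FaDu (written FADU in the labels), an established human epithelial line derived from a hypopharyngeal squamous carcinoma. Cells carrying a scrambled control or a TET1 knockdown were sequenced under normoxia (N-scr and N-si) and after 19 h in 1% O2 (H-scr and H-si). CO2 was 5% in all 4 groups, and each group had 1 library. The knockdown is named TET1-si in the labels, and by the methods it was made by lentiviral infection with short hairpins in pLKO.1-puro, so the scrambled cells had also been infected. No comparison here has a replicate check, no p-value is given, and the single hairpin and single infection behind each library cannot be told apart from the knockdown.

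FOS and JUN proteins pair through leucine zippers to form AP-1, which binds the TGACTCA element. FOSL1 and FOSL2 lack the strong activation domain of FOS and FOSB, and JUNB and JUND are in many settings weaker activators than JUN. FOS, EGR1 and DUSP1 belong to the genes that mitogens and stress switch on within minutes through MAP kinases, serum response factor with its ETS partners, and CREB or ATF factors, and DUSP1 in turn inactivates JNK, p38 and ERK. ATF3 is a bZIP stress factor downstream of JNK and of ATF4, and FOSL1 is often high in squamous carcinoma cells with an active ERK pathway.

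The start regions of these genes are shown because known response elements of AP-1, CREB or ATF and serum response factor can be looked for in them. RefSeq promoter windows (GRCh38.p14, 250 bases before the start to 50 after it) were found for 9 of the 10 symbols, with 2 windows for ATF3. The element TGACGT, the core of the cAMP response element, was present on either strand in 6 of the 10 windows (FOS, FOSB, FOSL2, JUND, EGR1 and DUSP1) and in 7.98% of 35116 RefSeq windows of the same length. Those 6 windows had a GC content of 64.0% to 77.0%, against a median of 58.7% over all windows. The shares of all windows given here and below are not matched for GC content. The full palindrome TGACGTCA, which holds TGACGT on both strands, was present in JUND and DUSP1 and in 1.85% of all windows. The variant TGACATCA was present in JUN and in the first ATF3 window, and in 2.61% of all windows. TGANTCA, where N is any base, was present in FOSL2 alone, as TGACTCA, against 7.71% of all windows. That share also counts TGAATCA and TGATTCA, so it is wider than the AP-1 element. The CArG box, the serum response factor element, was present in EGR1 alone, against 1.29%. An element farther than 250 bases upstream, in FOS or any other gene, lies outside these windows and would not be seen. The same holds for an element at a start site that has no window here, in ATF3 or any other gene. Windows for 5 genes follow, 5′ to 3′ on the strand of the gene, with these matches in capitals (in FOS and JUND the TGACGT core or palindrome, in JUN and ATF3 the variant, in EGR1 the CArG boxes, and ACGTCA in JUND and EGR1 where TGACGT lies on the other strand).
FOS, chr14:75278578-75278877, plus strand: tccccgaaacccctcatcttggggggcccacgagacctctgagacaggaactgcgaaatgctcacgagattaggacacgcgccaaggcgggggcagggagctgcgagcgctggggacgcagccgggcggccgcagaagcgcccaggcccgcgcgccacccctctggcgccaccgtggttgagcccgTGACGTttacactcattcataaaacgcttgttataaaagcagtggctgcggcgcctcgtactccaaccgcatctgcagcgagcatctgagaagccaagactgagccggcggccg
JUN, chr1:58783998-58784297, minus strand: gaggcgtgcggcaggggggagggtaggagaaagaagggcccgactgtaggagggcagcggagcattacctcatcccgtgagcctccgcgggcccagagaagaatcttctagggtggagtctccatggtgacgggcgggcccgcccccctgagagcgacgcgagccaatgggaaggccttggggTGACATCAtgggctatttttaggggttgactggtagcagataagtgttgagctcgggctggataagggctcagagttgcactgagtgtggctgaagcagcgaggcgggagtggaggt
JUND, chr19:18281573-18281872, minus strand: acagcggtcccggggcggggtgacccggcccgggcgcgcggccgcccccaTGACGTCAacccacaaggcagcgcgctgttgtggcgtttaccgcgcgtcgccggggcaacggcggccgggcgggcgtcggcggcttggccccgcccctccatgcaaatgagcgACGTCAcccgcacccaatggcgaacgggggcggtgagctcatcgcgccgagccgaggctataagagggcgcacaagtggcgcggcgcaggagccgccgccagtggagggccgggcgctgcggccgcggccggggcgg
ATF3, first window, chr1:212565157-212565456, plus strand: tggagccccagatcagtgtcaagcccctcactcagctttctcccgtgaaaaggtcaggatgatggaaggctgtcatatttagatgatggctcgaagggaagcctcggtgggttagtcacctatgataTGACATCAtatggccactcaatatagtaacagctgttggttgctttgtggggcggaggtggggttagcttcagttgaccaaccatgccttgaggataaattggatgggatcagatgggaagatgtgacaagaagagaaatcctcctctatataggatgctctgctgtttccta
EGR1, chr5:138465229-138465528, plus strand: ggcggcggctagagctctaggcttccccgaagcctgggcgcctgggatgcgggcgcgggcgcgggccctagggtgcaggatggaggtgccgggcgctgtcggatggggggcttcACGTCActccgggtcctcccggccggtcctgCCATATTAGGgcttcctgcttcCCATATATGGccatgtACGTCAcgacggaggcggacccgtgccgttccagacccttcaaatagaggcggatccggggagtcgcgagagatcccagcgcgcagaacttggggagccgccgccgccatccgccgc

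Counted back from the start, the TGACGT of FOS began 64 bases upstream, that of FOSB 60 bases upstream and that of FOSL2 66 bases upstream, so the 3 FOS genes with a window shared this element at nearly the same distance. The JUN variant began 67 bases upstream and the ATF3 variant 123 bases upstream. JUND held its palindrome 200 bases upstream and another TGACGT 87 bases upstream, DUSP1 its palindrome 125 bases upstream and another TGACGT 172 bases upstream, and EGR1 its CArG boxes 105 and 83 bases upstream. The first ATF3 window also held TGATGNAA, an ATF4-type site, 191 bases upstream, which 3.62% of all windows held. The core of the hypoxia response element (ACGTG or GCGTG, which shares the letters ACGTG with some TGACGT sites) was present in 7 of the 10 windows, 48.4% of all windows held it, and JUND and both ATF3 windows lacked it. These are matches of letters, with no measure of binding behind them.

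The libraries held 22480000 to 24520000 fragments, as recovered from the step between low FPKM values of genes with 1 exon. TET1 (ENSG00000138336), the targeted gene, was at 0.129 FPKM in N-scr and 0.0493 in N-si, then at 0.331 in H-scr and 0.122 in H-si. That is 2.63-fold lower in N-si than in N-scr and 2.71-fold lower in H-si than in H-scr, on only 11 to 76 reads per library. The hairpin listed by the study targets ccttgatagaatcactcagtt, found once in the TET1 locus at chr10:70451833-70451853 (GRCh37), in the UTR part of exon 12. The 7 epithelial markers examined were at 42.1 FPKM or higher in every library, but their sum was 6030 and 7500 FPKM in N-scr and H-scr against 1910 and 2930 FPKM in N-si and H-si. The lower sum came from the keratins KRT5, KRT8 and KRT18, while CDH1 was at 179 FPKM in N-scr against 267 in N-si, and at 292 in H-scr against 399 in H-si, and EPCAM was also higher with the knockdown in both oxygen states. Of 8 markers of fibroblasts, leukocytes and endothelium, COL1A2 and CD3E were at 0 in all 4 libraries, 2 to 4 of the 8 were at 0 in each library, and the sum was 15.6 FPKM in N-scr and 39.7 in N-si, against 48.2 in H-scr and 89.2 in H-si, carried mainly by COL1A1 and CDH5. The part of either marker list in the results below was not tested. In such bulk libraries fewer expressing cells and less RNA per cell cannot be told apart.

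FOSL1 was the most abundant of the 10 genes in scrambled cells under normoxia, at 88.7 FPKM, followed by JUNB at 31.0 and JUN at 13.1. FOSL2 was at 9.97 FPKM, EGR1 at 7.62, ATF3 at 6.49 and DUSP1 at 4.10. JUND at 3.08, FOS at 2.38 and FOSB at 0.543 FPKM were the lowest. For 7 genes (FOS, FOSB, FOSL2, JUN, JUND, ATF3 and DUSP1) N-scr was the lowest of the 4 libraries. In H-si the order had changed, with JUNB highest at 35 FPKM, then ATF3 at 25.0, FOSL2 at 23.8 and then FOSL1 at 18.1. All levels compared between genes are FPKM, which is per length.

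**Figure D1:**
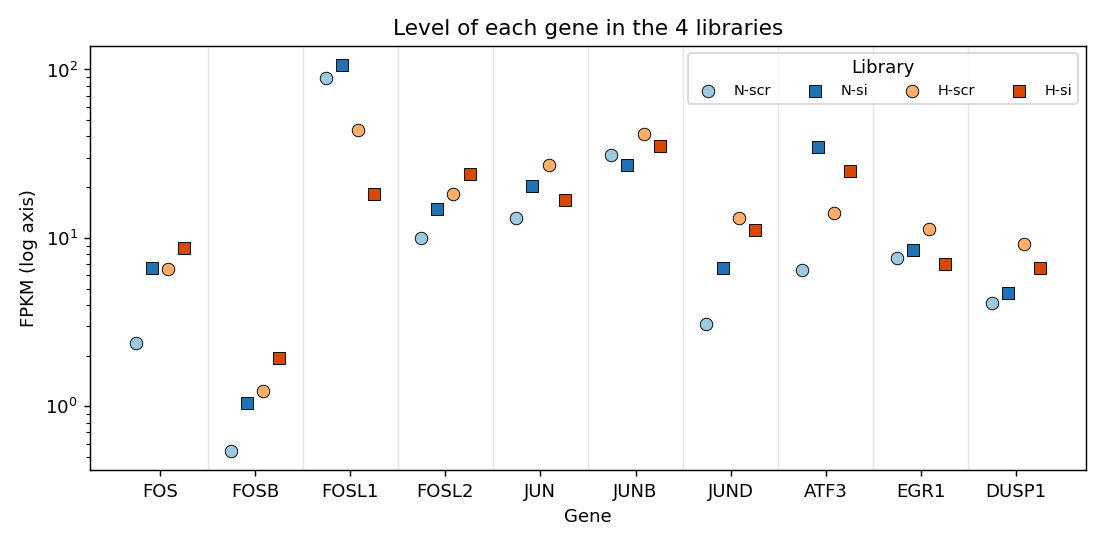
FPKM (log axis) of each of the 10 genes in the 4 libraries, 1 point per library (circles, scrambled control; squares, TET1-si; blue, normoxia; orange, hypoxia). FOSL1 lies highest in the 2 normoxic libraries, at 88.7 and 106 FPKM, and lowest in H-si at 18.1, while FOS, FOSB and FOSL2 are lowest in N-scr and highest in H-si.

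In scrambled cells hypoxia was accompanied by higher levels of most of the group, with FOSL1 as the exception. Log2 changes below, and the counts of genes changed by 2-fold, are on the scale log2(FPKM + 0.1), which understates changes of low genes, while each value written as a fold of a level is the ratio of FPKM as deposited. On the log2 scale 6 of the 10 genes were at least 2-fold higher in H-scr than in N-scr (JUND, FOS, DUSP1, ATF3, JUN and FOSB), where 12.9% of the 15057 genes were. With a pseudocount of 1 in place of 0.1 the 6 became 4, and with median-of-ratios scaling of the libraries 5. FOSL1 was the 1 gene at least 2-fold lower, where 4.53% of all genes were. The median change of the 10 genes was 1.05, against 0.05 over all genes tested. In TET1-si cells none of the 10 was at least 2-fold higher in H-si than in N-si (12.5% of all genes were) and 1, again FOSL1, was at least 2-fold lower (8.66% of all genes were), with a median change of 0.39 against 0.03 over all genes. These 2 hypoxia responses share no library. The response in scrambled cells does share N-scr with the knockdown comparison under normoxia, and H-scr with the knockdown comparison under hypoxia. The response in TET1-si cells shares N-si and H-si with them in the same way, and the difference of responses uses all 4 libraries. A low or high value in 1 library, such as N-scr or H-scr, would move every comparison that uses it, so these are not separate observations.

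The response in TET1-si cells was the lower of the pair for all 10 genes, as it was for 8340 of the 15057 genes tested. The difference of the 2 responses on the log2 scale, TET1-si less scrambled, ran from -1.56 for ATF3 to -0.03 for JUNB, with a median of -0.94 against -0.06 over all genes, and the sign for JUNB turns with the scaling of the libraries (up to 0.04). For 5 genes (ATF3, FOSL1, JUN, JUND and FOS) the response was at least 2-fold lower in TET1-si cells, where 7.86% of all genes were, although FOS at -1.04 reached -0.97 under other scalings. For none was it at least 2-fold higher, where 4.87% of all genes were. The 95% counting interval of the difference, from the reads each FPKM stands for, lay below 0 for 8 of the 10 genes and held 0 for FOSB and JUNB. The share of all genes with such an interval below 0 was not computed, so the 8 cannot be set against it. Such intervals cover counting error only and not the spread between cultures, which these data do not measure.

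**Figure D2:**
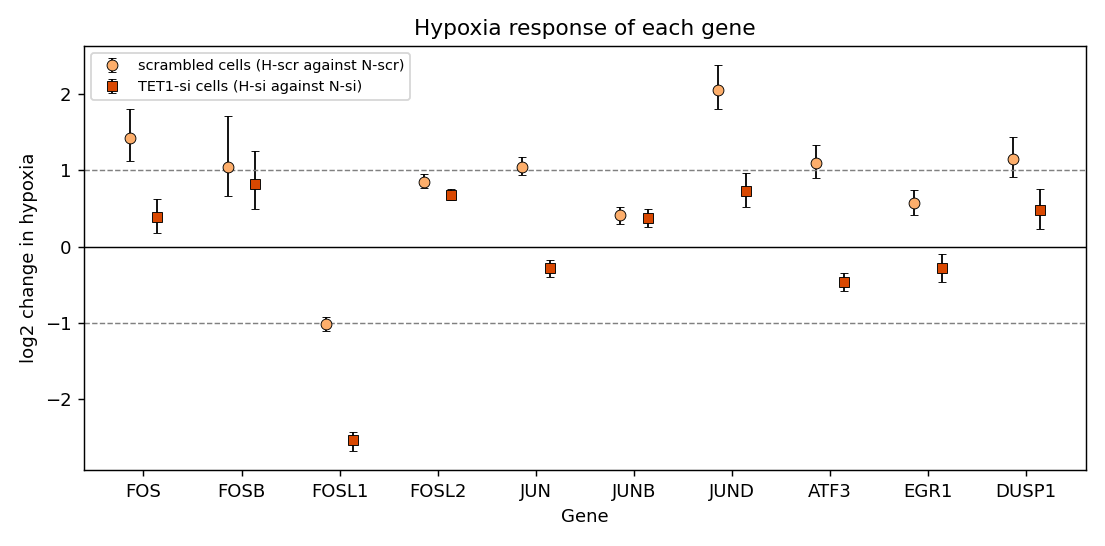
log2 change in hypoxia for each gene in scrambled cells (circles, H-scr against N-scr) and TET1-si cells (squares, H-si against N-si), with 95% counting intervals as bars and dashed lines at 2-fold. The TET1-si point is the lower of each pair, by 1.56 for ATF3 and by 0.03 for JUNB.

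FOSL1 (ENSG00000175592, hg19 chr11:65659490-65668044, minus strand) encodes FRA-1. It was at 88.7 FPKM in N-scr and 106 in N-si, then at 44 in H-scr and 18.1 in H-si, standing for about 3018, 3870, 1604 and 607 reads. Both hypoxic libraries lay below both normoxic ones. The level in H-scr was 2.02-fold lower than in N-scr (log2 change -1.01, 95% counting interval -1.10 to -0.92), close to the 2-fold limit, and in H-si it was 5.85-fold lower than in N-si (-2.54, -2.68 to -2.43). The knockdown thus went with a 1.20-fold higher level under normoxia and a 2.42-fold lower level under hypoxia. On the log2 scale the change under normoxia was 0.26, and it ran from 0.09 to 0.31 over the scalings tried. The median over all genes in that comparison was 0.15 as deposited. The difference of the hypoxia responses was -1.53 (-1.69 to -1.39).

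FOS (ENSG00000170345, chr14:75745477-75748933, plus strand) was at 2.38 FPKM in N-scr and 6.64 in N-si, then at 6.57 in H-scr and 8.75 in H-si, on about 103 to 372 reads. The N-scr library stood below the other 3, which lay within 1.33-fold of each other. In hypoxia FOS was 2.76-fold higher in scrambled cells (1.43, 1.13 to 1.80) and 1.32-fold higher in TET1-si cells (0.39, 0.18 to 0.62). Under normoxia it was 2.79-fold higher in N-si than in N-scr, a value that shares the N-scr library with the 2.76-fold hypoxia response. Under hypoxia it was 1.33-fold higher in H-si than in H-scr.

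FOSB (ENSG00000125740, chr19:45971253-45978437, plus strand) was the scarcest of the 10, at 0.543 FPKM in N-scr and 1.05 in N-si, then at 1.23 in H-scr and 1.93 in H-si, on 44 to 155 reads. It was lowest in N-scr and highest in H-si, as FOS was. Its hypoxia response was 2.26-fold in scrambled cells (1.04, 0.66 to 1.72) and 1.84-fold in TET1-si cells (0.82, 0.49 to 1.26), and their difference of -0.22 had a counting interval from -0.92 to 0.33. The whole FOSB locus lies within that of ERCC1, a DNA repair gene on the other strand that was at 22.4 to 39.8 FPKM, and the counting is not stated to use strand, so reads of the pair may not be fully separated.

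FOSL2 (ENSG00000075426, chr2:28615315-28640179, plus strand) encodes FRA-2. It was at 9.97 FPKM in N-scr and 14.8 in N-si, then at 18.1 in H-scr and 23.8 in H-si, on 1483 to 3479 reads. The 4 libraries thus had the same order as for FOSB, with each hypoxic library above its normoxic counterpart and each TET1-si library above its scrambled counterpart. The hypoxia response was 1.82-fold in scrambled cells (0.85, 0.77 to 0.95) and 1.61-fold in TET1-si cells (0.68, 0.61 to 0.76), under 2-fold in both.

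Summed over the 4 genes, FOS family RNA amounted to 102 FPKM in N-scr and 128 in N-si, then to 69.9 in H-scr and 52.6 in H-si. This sum was 1.46-fold lower in H-scr than in N-scr and 2.43-fold lower in H-si than in N-si. FOSL1 made up 87.3% of the sum in N-scr and 82.5% in N-si, against 62.9% in H-scr and 34.4% in H-si. FOSL2 made up 9.81%, 11.5%, 25.9% and 45.3% in the same order, so that in H-si it was the most abundant of the FOS genes. FOS itself went from 2.34% in N-scr to 16.6% in H-si, and FOSB from 0.534% to 3.67%.

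**Figure D3:**
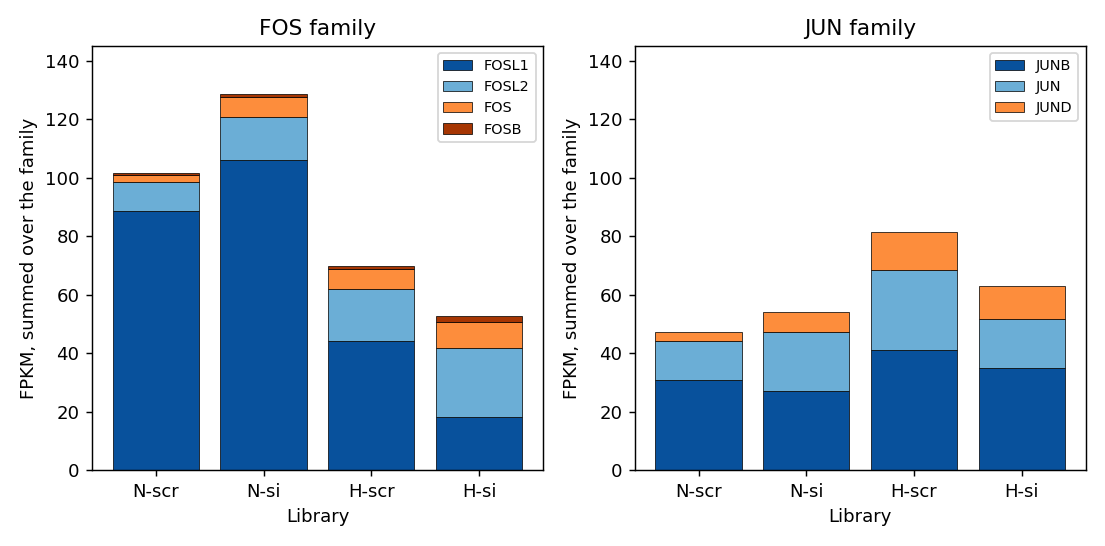
Stacked FPKM of the FOS family (left) and the JUN family (right) in the 4 libraries, 1 bar per library. The FOS family bar is shortest in H-si, at 52.6 FPKM, with FOSL1 at 18.1 of it, and the JUN family bar is tallest in H-scr, at 81.4 FPKM.

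JUN (ENSG00000177606, chr1:59246465-59249785, minus strand, 1 exon) was at 13.1 FPKM in N-scr and 20.4 in N-si, then at 27.1 in H-scr and 16.8 in H-si, on 910 to 2023 reads. H-scr was the highest library and H-si lay between the 2 normoxic ones. In hypoxia JUN was 2.07-fold higher in scrambled cells (1.05, 0.94 to 1.17) and 1.22-fold lower in TET1-si cells (-0.28, -0.40 to -0.17). The knockdown went with a 1.56-fold higher level under normoxia and a 1.62-fold lower level under hypoxia, so both pairs of responses had opposite signs.

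JUND (ENSG00000130522, chr19:18390563-18392432, minus strand, 1 exon) had the largest hypoxia response of the 10 genes in scrambled cells. It was at 3.08 FPKM in N-scr and 6.64 in N-si, then at 13.1 in H-scr and 11.1 in H-si, on 121 to 551 reads, with both hypoxic libraries above both normoxic ones. The response was 4.26-fold in scrambled cells (2.06, 1.80 to 2.38) and 1.67-fold in TET1-si cells (0.73, 0.52 to 0.96). JUND was 2.16-fold higher in N-si than in N-scr, a change of 1.08 that ran from 0.92 to 1.14 over the scalings tried, and 1.18-fold lower in H-si than in H-scr.

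JUNB (ENSG00000171223, chr19:12902310-12904124, plus strand, 1 exon) varied least, at 31.0 FPKM in N-scr and 27.0 in N-si, then at 41.2 in H-scr and 35 in H-si. Its highest library was 1.53-fold above the lowest. The hypoxia responses of 0.41 (0.30 to 0.52) in scrambled and 0.38 (0.26 to 0.50) in TET1-si cells differed by -0.03, with a counting interval from -0.19 to 0.13. The whole JUNB locus lies within that of HOOK2 on the other strand, which was at 60.5, 50.2, 80.0 and 99.9 FPKM in the same 4 libraries, with the same limit on separating the reads. JUN family RNA summed to 47.2 FPKM in N-scr and 54.0 in N-si, then to 81.4 in H-scr and 62.9 in H-si, a 1.72-fold higher sum under hypoxia in scrambled cells and 1.16-fold in TET1-si cells. JUNB made up 65.7% of it in N-scr and 55.6% in H-si, and JUND went from 6.53% in N-scr to 17.6% in H-si.

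ATF3 (ENSG00000162772, chr1:212738676-212794119, plus strand) had the widest spread outside the FOS family. It was at 6.49 FPKM in N-scr and 34.5 in N-si, then at 14 in H-scr and 25.0 in H-si, on 256 to 1457 reads, and both TET1-si libraries lay above both scrambled ones. Under normoxia it was 5.31-fold higher with the knockdown (2.39, 2.22 to 2.61), and under hypoxia 1.79-fold higher (0.83, 0.69 to 0.99). In hypoxia it was 2.16-fold higher in scrambled cells (1.10, 0.90 to 1.33) and 1.38-fold lower in TET1-si cells (-0.46, -0.58 to -0.34). The table gives 1 value for the gene, so RNA from different start sites is not separated.

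EGR1 (ENSG00000120738, chr5:137801179-137805004, plus strand), a zinc finger factor, stayed within 1.62-fold over the 4 libraries, at 7.62 FPKM in N-scr and 8.48 in N-si, then at 11.3 in H-scr and 6.98 in H-si. H-scr was highest and H-si lowest. In hypoxia it was 1.49-fold higher in scrambled cells (0.57, 0.41 to 0.74) and 1.22-fold lower in TET1-si cells (-0.28, -0.46 to -0.10), with neither change reaching 2-fold. Under hypoxia the level in H-si was 1.62-fold lower than in H-scr, while under normoxia the change of 0.15 had a counting interval from -0.02 to 0.33 and its sign turned with the scaling (-0.01 to 0.20).

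DUSP1 (ENSG00000120129, chr5:172195093-172198198, minus strand) was at 4.10 FPKM in N-scr and 4.73 in N-si, then at 9.23 in H-scr and 6.66 in H-si, on 169 to 407 reads. Both hypoxic libraries lay above both normoxic ones. The hypoxia response was 2.25-fold in scrambled cells (1.15, 0.91 to 1.44) and 1.41-fold in TET1-si cells (0.48, 0.23 to 0.76), and their difference was -0.67 (-1.05 to -0.31). The level in H-si was 1.39-fold lower than in H-scr.

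The knockdown itself went with different changes in the 2 oxygen states. Under normoxia 3 of the 10 genes (ATF3, FOS and JUND) were at least 2-fold higher in N-si than in N-scr, where 12.1% of all genes were, and none was at least 2-fold lower, where 5.56% of all genes were. The median of the 10 was 0.60, against 0.15 over all genes. These normoxic values share the N-scr library with the hypoxia response in scrambled cells. Under hypoxia none was at least 2-fold higher in H-si than in H-scr, where 12.0% of all genes were, and FOSL1 was the 1 gene at least 2-fold lower, where 8.35% of all genes were. The median was then -0.24, against 0.10 over all genes. These hypoxic values share the H-scr library with the hypoxia response in scrambled cells. Of the genes called in these comparisons over the whole table, 68.6% under normoxia and 59.0% under hypoxia were higher with the knockdown, and median-of-ratios scaling of the libraries put these shares at 56.0% and 49.2%.

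**Figure D4:**
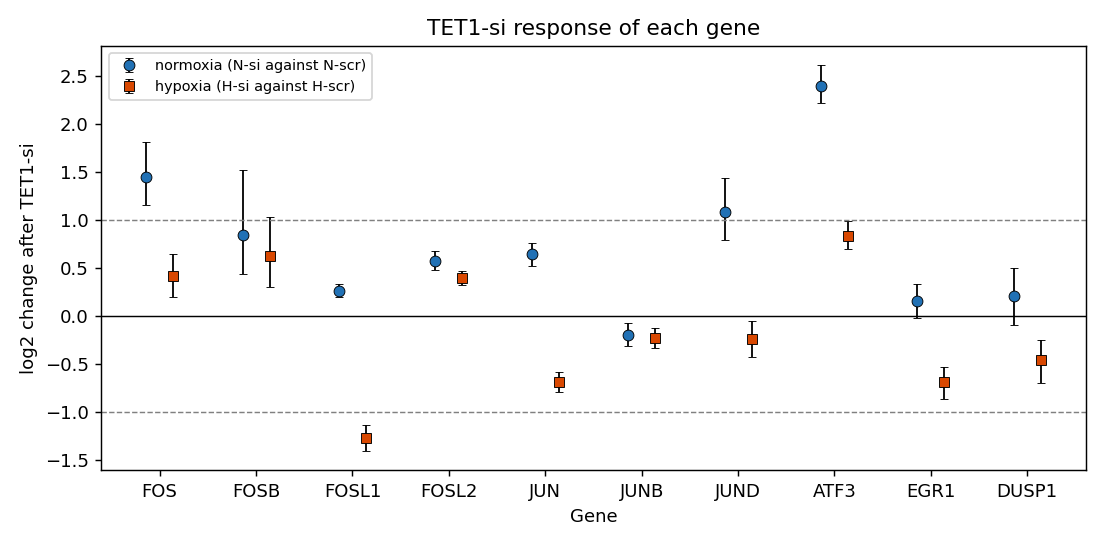
log2 change after TET1-si for each gene under normoxia (circles, N-si against N-scr) and hypoxia (squares, H-si against H-scr), with 95% counting intervals as bars and dashed lines at 2-fold. ATF3 lies highest at 2.39 under normoxia and FOSL1 lowest at -1.27 under hypoxia.

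The study's methods select TET1-dependent genes by 3 inequalities: under hypoxia the scrambled library exceeds 2 times the TET1-si library, the scrambled library is higher in hypoxia than in normoxia, and under normoxia it is not below the TET1-si library. None of the 10 genes met all 3, where 3.84% of all genes did. FOSL1, the 1 gene to meet the first of them, was lower in H-scr than in N-scr.

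Other genes of the pathway were followed in lists chosen with earlier results of these data known. Their counts are to be read against the shares of all genes given above, which in scrambled cells under hypoxia were 12.9% higher and 4.53% lower, in TET1-si cells under hypoxia 12.5% and 8.66%, with the knockdown under normoxia 12.1% and 5.56%, and with the knockdown under hypoxia 12.0% and 8.35%. For the difference of responses the shares were 4.87% higher and 7.86% lower. A gene that reached the level filter only through the libraries where it is high had to differ, so the counts over such lists are descriptions. Of 20 genes reported as AP-1 targets, 17 passed the level filter, and in scrambled cells hypoxia left 5 at least 2-fold higher and none lower, led by the stromelysin gene MMP10 (1.81) and the collagenase gene MMP1 (1.55). In TET1-si cells none was at least 2-fold higher and 6 were lower, with AREG, an EGFR ligand (-1.55), and the collagenase MMP13 (-1.20) lowest. Under hypoxia 9 of 17 were at least 2-fold lower in H-si than in H-scr and none higher. That comparison shares H-scr with the hypoxia response in scrambled cells and H-si with that in TET1-si cells, so the counts are not separate observations. IL8, a neutrophil chemokine, was at 17.0 FPKM in N-scr and 2.74 in N-si, then at 41.8 in H-scr and 1.17 in H-si, and MMP10 was at 9.16, 7.82, 32.4 and 3.68 FPKM. The difference of hypoxia responses had a median of -0.87 over the 17 genes, and was -2.88 for MMP10 and -2.46 for IL8. Not all targets were lower with the knockdown: under normoxia MMP13 was at 59.6 FPKM in N-si against 13.7 in N-scr and MMP1 at 26.6 against 9.07, and 3 of the 17 were at least 2-fold higher against 4 lower.

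Of 25 other immediate-early genes past the filter, 6 were at least 2-fold higher in H-scr than in N-scr and none was lower, led by the antiproliferative gene BTG1 (1.54) and by CSRNP1 (1.43). In TET1-si cells 1 was higher (GADD45B, 1.25) and 1 lower (GADD45A, -1.21). The difference of responses had a median of -0.47 and was at least 2-fold lower for 3 genes and higher for none. KLF6, a zinc finger factor, was lowest at -1.61, with 9.24 FPKM in N-scr and 7.49 in N-si, against 22.1 in H-scr and 5.81 in H-si. Of 11 bZIP partners past the filter, ATF3 included, 4 were at least 2-fold higher in H-scr than in N-scr and 2 in H-si than in N-si, MAF (3.62 and 3.45) among them. MAF passed the filter only through the hypoxic libraries, and its 0.0705 FPKM in N-scr stands for 4 reads. The small MAF gene MAFF had the lowest difference of responses in that list at -2.01, with 6.11 FPKM in N-scr and 5.70 in N-si, against 21.5 in H-scr and 4.90 in H-si.

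Of 23 MAP kinase cascade genes, 2 were at least 2-fold higher in H-scr than in N-scr and 1 in H-si than in N-si, and none was lower in any of the 4 comparisons. MAPK10, which encodes JNK3, was at 0.183 FPKM in N-scr (36 reads) against 1.26 in N-si, and at 0.495 in H-scr against 5.02 in H-si, and it passed the filter only through the TET1-si libraries. Of 8 genes of EGR and serum response factor control, none changed by 2-fold in hypoxia, in scrambled or in TET1-si cells. NAB2, a corepressor of EGR1, and ELK3, an ETS partner of serum response factor, were at least 2-fold lower with the knockdown in both oxygen states (NAB2 by -1.24 and -1.48, ELK3 by -1.12 and -1.06 under normoxia and hypoxia). Of 7 genes of the ATF4 branch, ATF4 itself was at 388 FPKM in N-scr and 221 in N-si, then at 344 in H-scr and 167 in H-si. Its targets CHAC1 (-1.52 and -1.95) and ASNS (-1.37 and -1.46) were lower in hypoxia with either hairpin, and DDIT4, which is also a HIF target, was higher (1.56 and 2.25). In each hypoxia response 4 of the 7 changed by less than 2-fold.

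Of 11 other dual-specificity phosphatases, 4 were at least 2-fold higher and 1 lower in H-scr than in N-scr, against 1 higher and 3 lower in H-si than in N-si. DUSP6, the ERK phosphatase, was at 7.00 FPKM in N-scr and 10.3 in N-si, then at 19.3 in H-scr and 4.80 in H-si, and its difference of responses of -2.54 was the lowest in the list. DUSP8 followed at -1.90, but it was at 0.306 FPKM in N-scr (32 reads) and passed the filter only through N-si, where it is highest at 2.01 FPKM. Under normoxia 5 of the 11 were at least 2-fold higher with the knockdown, DUSP16 (2.37) and DUSP8 (2.38) among them, and 1 was lower, DUSP4 (-1.31).

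**Figure D5:**
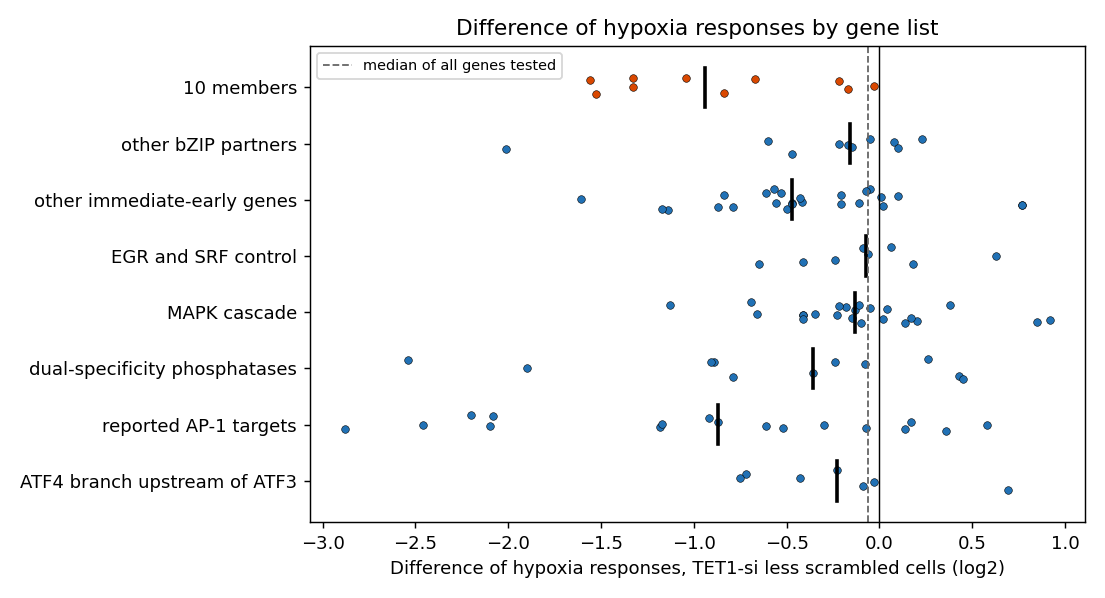
Difference of hypoxia responses (log2, TET1-si less scrambled cells) for the 10 genes and for the genes of 7 related lists past the level filter, with ATF3 shown among the 10 only. Each point is 1 gene, the black bar is the median of its row, and the dashed line is the median of all genes tested at -0.06; the 10 genes lie between -1.56 and -0.03.

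The profiles most like those of 3 members over the 4 libraries were sought among 11231 protein-coding genes, by the Euclidean distance of log2 levels centred on their mean. Nearest to FOS were FRYL (distance 0.0897), IQGAP2 (0.0898) and DUSP5 (0.151). Nearest to FOSL1 were POLE2 (0.121), SKA3 (0.168) and CDCA5 (0.183), genes of DNA replication, the kinetochore and sister chromatid cohesion. POLE2, for example, was at 26.7 FPKM in N-scr and 34.4 in N-si, then at 13.3 in H-scr and 5.97 in H-si. Nearest to EGR1 were OSBPL9 (0.0868), GNB5 (0.0979) and BARX2 (0.0986). With 4 libraries such a likeness is a description of 4 values per gene.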

How the data were processed

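RNA of FaDu cells was sequenced by the authors on an Illumina HiSeq instrument (TruSeq mRNA libraries, reads of 100 bp), aligned to hg19 with TopHat and quantified with Cufflinks on Ensembl annotation (versions not given in the sources used here). The labels call the reads single end and the methods paired end. The deposited table holds FPKM values for 4 libraries. From these, log2(FPKM + 0.1) differences were computed with Python 3.11.15, numpy 2.4.6, pandas 2.3.3 and scipy 1.17.1, over genes with a unique identifier and a mean of at least 1 FPKM, and a change was counted from 2-fold. With 1 library per group no test was possible. The added 0.1 understates changes of low genes.

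Depth was recovered from genes with 1 exon, where 92.6% to 93.8% of low values were whole reads within 0.05. Reads of genes with several exons are approximate, since a single GENCODE transcript gave their length. They give the 95% counting intervals (Clopper-Pearson for a ratio, normal on the log scale for a difference of responses), which carry no pseudocount.

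The members and lists were chosen with earlier results of these data known. Named were all 10 members, TET1, at most the 2 highest and 2 lowest changes of at least 2-fold per list and comparison, and the 3 nearest profiles of FOS, FOSL1 and EGR1. The overlapping genes ERCC1 and HOOK2, and the markers COL1A1, COL1A2, CDH5, CD3E, KRT5, KRT8, KRT18, CDH1 and EPCAM, were named after they were seen. Alternatives were pseudocounts of 1 and 0.01, other filters, TPM, median-of-ratios and upper-quartile scaling, and a limit of 1.5-fold. Figures were drawn with matplotlib 3.10.9. Scripts were tested on simulated data.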

Additional observations from a re-analysis of the deposited data

Results flagged for a closer look

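For 5 of the 10 genes a response went in opposite directions in the 2 settings in which it was measured, with both counting intervals clear of 0. The share of all genes that do so was not computed, so the 5 cannot be set against it. The knockdown responses of DUSP1 (0.20 under normoxia and -0.46 under hypoxia) and EGR1 (0.15 and -0.69) also had opposite signs, but the interval under normoxia held 0 for both. No such difference was tested, since each group had 1 library. In hypoxia JUN (1.05 in scrambled and -0.28 in TET1-si cells, a difference of -1.33), ATF3 (1.10 and -0.46, a difference of -1.56) and EGR1 (0.57 and -0.28, a difference of -0.84) were higher in scrambled and lower in TET1-si cells. After the knockdown FOSL1 (0.26 under normoxia and -1.27 under hypoxia, a difference of -1.53), JUN (0.64 and -0.69, a difference of -1.33) and JUND (1.08 and -0.24, a difference of -1.33) were higher under normoxia and lower under hypoxia. The FOSL1 value under normoxia ran from 0.09 to 0.31 over the scalings tried, against a median of 0.15 over all genes as deposited. The difference is the same number whichever pair of responses of a gene it is formed from, so both entries for JUN are 1 observation.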

How the results depend on the processing

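With 1 library per group no replicate could be left out, and no paired analysis was possible because the labels give no replicate numbers. Of 250 values of single genes under the alternatives, 231 moved by no more than 0.5 of the width of their counting interval, 19 moved by more, and no change of at least 2-fold turned its sign. Of 118 counts and medians, 111 stayed near the reported value and 7 moved. The 3 genes at least 2-fold higher with the knockdown under normoxia became 2, and the 5 with a lower difference of responses 4, with a pseudocount of 1 and with median-of-ratios or upper-quartile scaling. The count of 1 gene at least 2-fold lower in H-scr than in N-scr became 0 with a pseudocount of 1, with TPM and with upper-quartile scaling, since FOSL1 lies at the 2-fold limit (-0.89 with TPM). Counting from 1.5-fold, 3 genes were higher in H-si than in N-si, 2 were higher and 3 lower with the knockdown under hypoxia, and 5 were higher with it under normoxia. No gene met the 3 inequalities under any scaling. The median over all genes was 0.15 for the knockdown under normoxia as deposited and 0.20 with TPM, where it also was 0.16 for both hypoxia responses and 0.17 for the knockdown under hypoxia. Of the genes called in hypoxia in TET1-si cells, 59.1% were higher as deposited and 69.1% with TPM. Among the 10 genes depth limits FOSB most (44 reads in N-scr), and beyond them TET1 (11 reads in N-si) and MAF (4 reads in N-scr) have fewer reads still.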
